A study of Rattus norvegicus with 9 samples.

Results

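The microRNAs miR-10 and miR-196 are encoded inside the HOX clusters, the rows of homeobox genes that set position along the body axis. Their members were looked for in exosomal small RNA of rat peritoneal macrophages by name: rno-miR-10a-5p, miR-10b-5p, miR-196a-5p, miR-196b-5p and miR-196c-5p in a deposited table of 201 mature miRNAs. Of these 5 names, 3 had a row (miR-10a-5p, miR-196a-5p and miR-196b-5p) and 2 had none (miR-10b-5p and miR-196c-5p). The files of single libraries list each distinct read sequence (tag) with its reads. They split the table's own reads of these 3 miRNAs into 8 mature tags with 5349 reads. They added 36 tags assigned to the hairpins of these 3 miRNAs, with 2400 reads.

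Exosomes, the small vesicles that cells release, came from primary macrophages lavaged from untreated rat, kept in medium with fetal bovine serum. There were 9 small RNA libraries in 3 groups of 3. In the LPS+AS-IV group, cells were given the plant saponin astragaloside IV (150 µM, 24 h) ahead of lipopolysaccharide (LPS). The LPS group had LPS alone (100 ng/ml, 6 h), and the Control group had 0.1% DMSO for 24 h. Both agents were dissolved in DMSO, and no strain, age or number of animals is given in the labels. Whether the replicates of a group were separate animals or cultures is not stated, and the p-values cover the spread between libraries, which may be technical. In exosomal RNA, fewer vesicles with a miRNA and less of it per vesicle cannot be told apart.

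A miRNA guides its protein complex to messenger RNAs that pair with its seed, bases 2 to 8 counted from its 5′ end. Members of the miR-10 and miR-196 families are expressed in patterns like those of the HOX genes around them and pair with HOX messages. The best-known example is Hoxb8, whose message miR-196 directs to be cut. In endothelium, miR-10a is known to restrain NF-κB signalling.

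All 5 names were matched in RefSeq (rat build GRCr8). The Mir10a hairpin, at chr10:81779709-81779818 on the plus strand, lies between Hoxb5 and Hoxb4. Mir10b, at chr3:80035859-80035967 on the plus strand, lies within the span of Hoxd4. Mir196a, at chr7:135988876-135988985 on the plus strand, lies between Hoxc10 and Hoxc9. Mir196b, at chr4:82661101-82661185 on the minus strand, lies between Hoxa9 and Hoxa10. Mir196c, at chr10:81727551-81727630 on the plus strand, lies between Hoxb13 and Hoxb9. The mature sequences are shown because the members differ by single bases, on which the assignment of a read rests; capitals mark the seed.
miR-10a-5p: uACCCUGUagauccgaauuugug
miR-10b-5p as annotated: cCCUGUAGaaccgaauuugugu
Mir10b hairpin from the start that miR-10a-5p uses: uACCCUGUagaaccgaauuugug
miR-196a-5p: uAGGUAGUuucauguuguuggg
miR-196b-5p: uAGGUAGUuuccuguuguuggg
miR-196c-5p: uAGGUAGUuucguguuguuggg
Counted from the 5′ end, the Mir10b stretch differs from miR-10a-5p by U12A alone and has the same seed from that start. The annotated rat miR-10b-5p starts 2 bases further downstream, which gives it another seed, CCUGUAG. The 3 miR-196 sequences share the seed AGGUAGU and differ only at base 12, by A12C from miR-196a to miR-196b and by A12G from miR-196a to miR-196c. The same letters AGGUAGU stand at bases 3 to 9 of let-7a-5p.

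The libraries differed widely in depth. The fewest reads in the miRNA table, 15426, were in LPS+AS-IV 1 and the most, 546599, in LPS+AS-IV 3, out of 3484099 to 9527483 assigned reads per library. Levels are given as CPM, table reads relative to the size of the library after TMM scaling. The limit that a count of 0 allows, 3 reads, was highest in LPS+AS-IV 1 (216 CPM) and lowest in LPS+AS-IV 3 (5.99 CPM). Such floors and all intervals cover counting error only, since the labels name no molecular identifiers and PCR copies may be counted. Myeloid miRNAs were sparse: miR-142-3p had no row, and miR-223-3p was at 0 in LPS+AS-IV 1, LPS 1 and LPS 2 and at 329 to 3511 CPM in the other 6 libraries. For miR-142-5p there were 54 reads in Control 1 (1166 CPM), 47 in LPS 3 (754 CPM) and 0 or 1 elsewhere.

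By the table's names, neither miR-10a-5p nor miR-196b-5p passed the test in any comparison, and miR-196a-5p was read in 3 libraries only. Both tested members were of middle rank among the 201 miRNAs by mean share of table reads, with miR-10a-5p the 47th and miR-196b-5p the 54th. For both, the SD of CPM among LPS+AS-IV and among LPS libraries was wider than any difference between group means.

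miR-10a-5p had 8, 94 and 2363 reads in the 3 LPS+AS-IV libraries, which was 577, 1433 and 4721 CPM. It had 3, 149 and 43 reads in LPS libraries, or 108, 2551 and 689 CPM, and 109, 58 and 103 reads in Control libraries, or 2353, 1732 and 1384 CPM. LPS+AS-IV 3 was the highest and LPS 1 the lowest of the 9, the groups overlapped in every comparison, and the 3 Control libraries lay closest together. The highest library was 43.7-fold above the lowest, LPS 1, whose 3 reads (108 CPM) were at the floor and not above it.

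The means were 2243 ± 2187 CPM in LPS+AS-IV, 1116 ± 1276 CPM in LPS and 1823 ± 491 CPM in Control (SD, n = 3 each). The log2 fold change of miR-10a-5p was 1.01 (SE 1.55, edgeR adjusted p = 0.963) for LPS+AS-IV against LPS and 0.30 (SE 1.54, adjusted p = 0.981) for LPS+AS-IV against Control. For LPS against Control it was -0.70 (SE 1.55, edgeR adjusted p = 0.964). Without LPS+AS-IV 3 the first 2 of these changed sign, to -0.24 and -0.95.

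The miR-196b-5p row had 4, 29 and 2016 reads in the LPS+AS-IV libraries, or 288, 442 and 4027 CPM. It had 38, 144 and 1 reads in LPS libraries, or 1367, 2465 and 16.0 CPM, and 65, 56 and 1 reads in Control libraries, or 1403, 1673 and 13.4 CPM. LPS 3 and Control 3 held a single read each although Control 3 was the deepest Control library, and LPS+AS-IV 3 was again the highest. All 3 groups overlapped, and the highest library was 300-fold above the lowest. The floor of 3 reads was 48.1 CPM in LPS 3 and 40.3 CPM in Control 3.

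Means of miR-196b-5p were 1586 ± 2116 CPM in LPS+AS-IV, 1283 ± 1227 CPM in LPS and 1030 ± 890 CPM in Control (SD, n = 3 each). edgeR gave log2 fold changes of 0.31 (SE 2.06, adjusted p = 0.975) for LPS+AS-IV against LPS, 0.63 (SE 2.07, adjusted p = 0.981) for LPS+AS-IV against Control and 0.32 (SE 2.07, adjusted p = 0.964) for LPS against Control. Without LPS+AS-IV 3 the first 2 turned to -1.96 and -1.60; without LPS 3 the first was -0.26, and without Control 3 the second was -0.03 and the third -0.19. Leaving out LPS 2 turned the third to -0.32.

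Across the table, edgeR at an adjusted p under 0.05 called 0 of the 94 tested miRNAs for LPS+AS-IV against LPS (0%), 2 for LPS+AS-IV against Control (2.13%) and 1 for LPS against Control (1.06%). At an unadjusted p under 0.05 there were 3, 3 and 6, and DESeq2 called 1, 2 and 3. Neither tested member was among those called. By unadjusted p, miR-10a-5p was the 41st of 94 for LPS+AS-IV against LPS, its best place, and miR-196b-5p the 69th for LPS+AS-IV against Control. For LPS+AS-IV against LPS, the log2 fold change of miR-10a-5p with 2 SE to either side spanned -2.10 to 4.12. That of miR-196b-5p spanned -3.81 to 4.44. Both spans hold large changes in either direction, so the lack of a call does not show that these miRNAs were unchanged.

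miR-196a-5p had 0, 61 and 0 reads in LPS+AS-IV libraries, 0, 0 and 2 reads in LPS libraries and 0, 0 and 2 reads in Control libraries, and was below the filter on low counts. LPS+AS-IV 2 was the only library above the floor of 3 reads. All 61 of its reads were 1 tag, taggtagtttcatgttgttgggG, in which the capital marks a last base that the Mir196a hairpin does not carry. That tag was listed as mature with 0 mismatches. The exact sequence, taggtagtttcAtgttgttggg, with base 12 in capitals, was read 2 times in LPS 3, 2 times in Control 3 and in no other library. A tag ending in another unmatched base, taggtagtttcatgttgttgggT, had 26 reads in Control 1 and 1 in Control 2, and was listed under the hairpin and so outside the table. No tag was an exact stretch of at least 18 nt of the 5′ arm of the Mir196c hairpin.

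**Figure D1:**
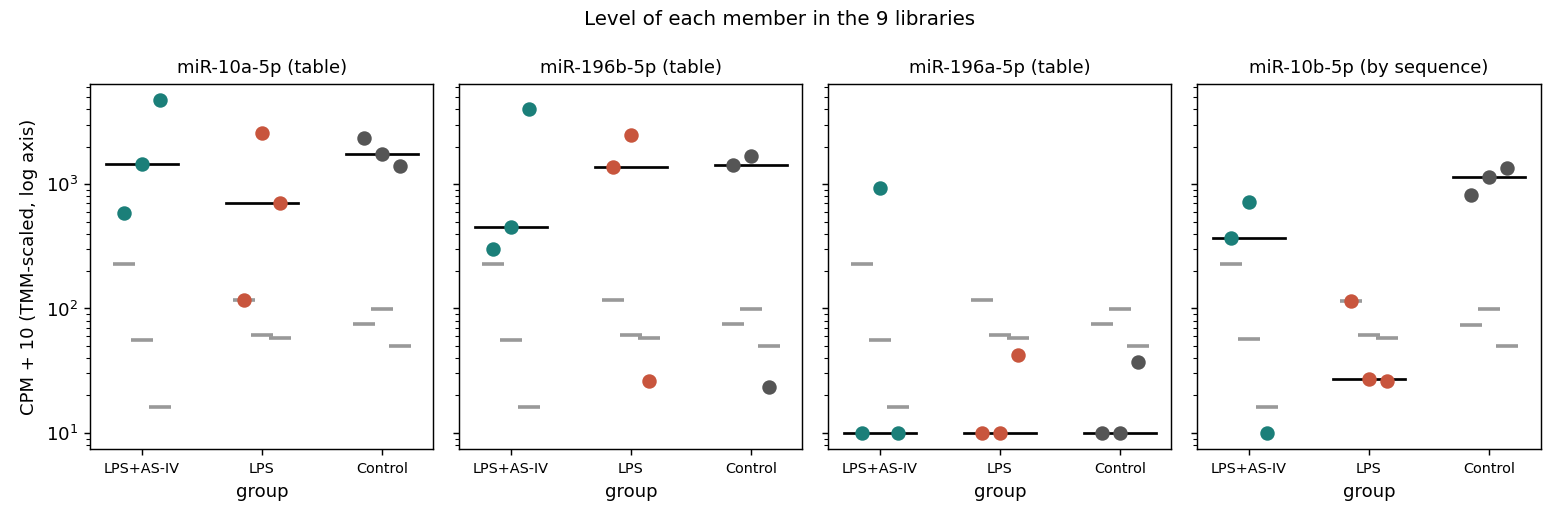
Level of each member in the 9 libraries (points; CPM plus 10, log axis) with the group median (black line) and the floor of 3 reads in each library (grey dashes). miR-10a-5p and miR-196b-5p overlapped between groups and peaked in LPS+AS-IV 3 at 4721 and 4027 CPM, miR-196a-5p stood above its floor in 1 library, and miR-10b-5p counted by sequence was at 0 to 711 CPM in LPS+AS-IV, at 16.1 to 105 CPM in LPS and at 812 to 1344 CPM in Control.

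The name miR-10b-5p had no row, yet its sequence was present. Tags of every assignment were therefore summed by sequence, an alternative chosen after the data were seen: a tag was given to a member when it was an exact stretch of at least 18 nt of that member's RefSeq hairpin. There were 17 such tags over all members, and each was an exact stretch of exactly 1 of the 419 rat hairpins in RefSeq. For miR-10b this gave 234 reads. Of these, 202 reads in 2 tags were listed as miR-10a-5p hairpin tags with 1 mismatch, and 32 reads in 4 tags as the Rfam family RF00104. All lay outside the table. The leading tags of both miR-10 sequences are shown side by side, with base 12 from the shared start in capitals.
miR-10a, mature in the table: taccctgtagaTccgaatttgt
miR-10a, 1 base shorter at the 3′ end, listed as hairpin: taccctgtagaTccgaatttg
miR-10a, 1 base shorter at the 5′ end, listed as hairpin: accctgtagaTccgaatttgt
miR-10b, listed as miR-10a hairpin: taccctgtagaAccgaatttgt
miR-10b, 1 base longer, listed as miR-10a hairpin: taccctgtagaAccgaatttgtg
miR-10b, 1 base shorter, listed as RF00104: taccctgtagaAccgaatttg

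Counted in this way, miR-10b was lower in all 3 LPS libraries and in all 3 LPS+AS-IV libraries than in any Control library. It had 5, 46 and 0 reads in LPS+AS-IV libraries, or 361, 711 and 0 CPM. It had 3, 1 and 1 reads in LPS libraries, or 105, 17.2 and 16.1 CPM, and 38, 38 and 102 reads in Control libraries, or 812, 1139 and 1344 CPM. No LPS library was above the floor of 3 reads, 2 of the 3 LPS+AS-IV libraries were, and all Control libraries were. LPS+AS-IV and LPS overlapped, since the deepest library, LPS+AS-IV 3, held no miR-10b read.

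The means of miR-10b were 357 ± 355 CPM in LPS+AS-IV, 46.0 ± 50.7 CPM in LPS and 1098 ± 268 CPM in Control (SD, n = 3 each). On the log2(CPM + 10) scale the mean difference was -4.65 for LPS against Control and -2.97 for LPS+AS-IV against Control, each with an exact two-sided permutation p of 0.1 (0.15 adjusted over the 3 comparisons), the smallest that 3 libraries against 3 can give. LPS+AS-IV against LPS differed by 1.68 on that scale (exact permutation p = 0.4, two-sided). A group of LPS libraries wholly below the Control libraries was seen for 12.6% of the 95 miRNAs tested by sequence, and of LPS+AS-IV wholly below Control for 6.32%. miR-10b met the filter on low counts only through its Control libraries, where it was highest. Its non-overlap and its p-values against Control therefore describe these libraries and are no independent support for a difference. Among those 95, only the members were recounted by sequence, and all other miRNAs kept their mature-tag counts. In the edgeR fit on these counts the log2 fold change was -4.60 for LPS against Control (SE 2.87, unadjusted p = 0.131, adjusted p = 0.783), the 15th of 95 by p. It was -1.62 for LPS+AS-IV against Control (SE 2.51, edgeR adjusted p = 0.966) and 2.98 for LPS+AS-IV against LPS (SE 2.69, adjusted p = 0.938). edgeR called 1.05% of the 95 for LPS against Control, 2.11% for LPS+AS-IV against Control and 0% for LPS+AS-IV against LPS, and miR-10b was called in none. No library left out turned a sign: the ranges were -6.02 to -3.91 for LPS against Control, -2.75 to -1.11 for LPS+AS-IV against Control and 1.57 to 4.31 for LPS+AS-IV against LPS.

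The 22-nt tags of the pair differ by base 12 only. The miR-10b tag had 0, 46 and 0 reads beside 8, 59 and 2363 reads of the miR-10a tag in LPS+AS-IV libraries. It had 2, 0 and 1 reads beside 2, 148 and 43 in LPS libraries, and 38, 13 and 39 beside 109, 58 and 103 in Control libraries. The libraries with the most miR-10a reads in the LPS+AS-IV and LPS groups thus held no read of the other tag.

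As a share of all reads of the pair counted by sequence, miR-10b made up 35.7%, 32.6% and 0% in LPS+AS-IV libraries, with 95% Wilson intervals of 16.3 to 61.2% and 25.4 to 40.7% in the first 2. It made up 42.9%, 0.427% and 1.37% in LPS libraries, with intervals of 15.8 to 75.0%, 0.0755 to 2.38% and 0.242 to 7.36%, and 20.3%, 32.5% and 24.5% in Control libraries, with intervals of 15.2 to 26.7%, 24.7 to 41.4% and 20.6 to 28.8%. For the 0 of 2418 reads in LPS+AS-IV 3 the Wilson interval reached up to 0.159%. The intervals of LPS+AS-IV 1 and 2 overlapped those of the 3 Control libraries, and LPS+AS-IV 3, LPS 2 and LPS 3 lay wholly below them. LPS 1 rested on 3 of 7 reads. Means were 22.8 ± 19.8% in LPS+AS-IV, 14.9 ± 24.2% in LPS and 25.8 ± 6.18% in Control (SD, n = 3 each). The miR-10a share, the complement, differed by -7.89 percentage points between LPS+AS-IV and LPS, by 2.97 between LPS+AS-IV and Control and by 10.9 between LPS and Control (exact permutation p = 1, 1 and 0.4, two-sided). With 3 libraries a group no such p can go below 0.1.

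**Figure D2:**
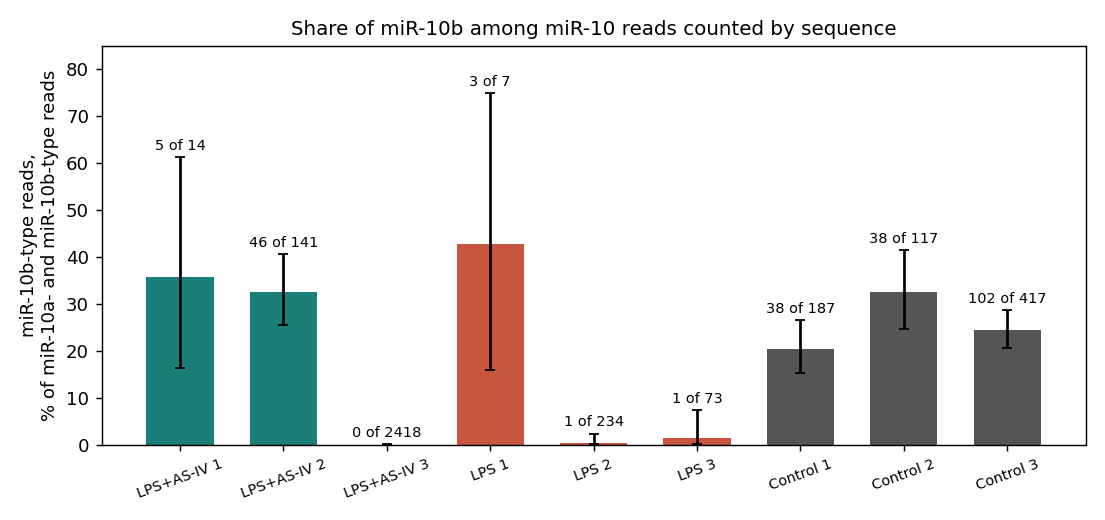
Share of miR-10b among miR-10a and miR-10b reads counted by sequence (bars, percent) in each library, with 95% Wilson intervals and the reads behind each bar. LPS+AS-IV 3, LPS 2 and LPS 3 were at 0%, 0.427% and 1.37%, and the 3 Control libraries were at 20.3% to 32.5%.

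Levels of cell type miRNAs stood beside these values. Of 8 mesenchymal miRNAs listed, 7 had a row and 4 were tested, and the summed level of the 7 was 2813 to 4512 CPM in LPS+AS-IV, 1475 to 2602 CPM in LPS and 10782 to 14249 CPM in Control. Except in LPS+AS-IV 3, where it was miR-199a-3p at 3528 CPM, most of it was miR-127-3p, encoded in an imprinted gene region, which was at 1587, 3765 and 5.99 CPM in LPS+AS-IV, at 1115, 1626 and 1491 CPM in LPS and at 11917, 7377 and 8467 CPM in Control. The defining mesenchymal miRNAs miR-143-3p and miR-145-5p had 0 or 1 read in every library, and miR-214-3p had no row. The 4 tested had a median log2 fold change of -1.82 for LPS against Control, beside -0.04 over all 94, and of 1.20 for LPS+AS-IV against LPS and -2.08 for LPS+AS-IV against Control, beside 0.19 and 0.21. None of the 4 passed in any comparison. For LPS+AS-IV against Control, miR-199a-3p was fitted higher and the other 3 lower.

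Other lists held miRNAs whose LPS libraries did not overlap Control. Endothelial miR-126a-3p was at 4616, 12866 and 6882 CPM in LPS+AS-IV, at 3346, 5307 and 1571 CPM in LPS and at 12608, 6870 and 12377 CPM in Control (log2 fold change -1.64 for LPS against Control, edgeR unadjusted p = 0.0307, adjusted p = 0.662). Erythroid miR-486 was at 9376, 2012 and 0 CPM in LPS+AS-IV, at 2986, 137 and 0 CPM in LPS and at 6196, 10036 and 8198 CPM in Control. Both were lower in every LPS library than in any Control library, and LPS+AS-IV overlapped Control. The other endothelial miRNA listed, miR-126a-5p, was not tested, with 22 reads in LPS 3 (353 CPM) and 0 in every other library. The more abundant erythroid miR-451-5p overlapped, at 28283 to 33391 CPM in LPS and 27449 to 40371 CPM in Control. Its log2 fold change for LPS against Control was -0.18 (edgeR adjusted p = 0.964).

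The liver and serum miRNA miR-122-5p ran the other way. It was at 6203, 5747 and 4099 CPM in LPS+AS-IV, at 8816, 3561 and 5724 CPM in LPS and at 3238, 1434 and 1451 CPM in Control, higher in every library of both groups than in any Control library. The other miRNA of that list, miR-192-5p, did not: its log2 fold change was -0.99 for LPS against Control and -0.18 for LPS+AS-IV against Control. It ranged over 0 to 975 CPM in LPS+AS-IV, 0 to 540 CPM in LPS and 0 to 1135 CPM in Control. Lymphocyte miR-181b-5p was at 18175, 12271 and 27492 CPM in LPS+AS-IV, at 3526, 11316 and 13051 CPM in LPS and at 2893, 5824 and 5631 CPM in Control, and its LPS+AS-IV libraries were all above Control (log2 fold change 2.01, edgeR adjusted p = 0.167). Lymphocyte miR-150-5p and miR-181a-5p overlapped between LPS+AS-IV and Control, with log2 fold changes of 0.05 and 0.09. Over the table's 94 tested miRNAs, every LPS library was below every Control library for 11.7% and above for 7.45%, and LPS+AS-IV was wholly below Control for 5.32% and wholly above for 5.32%. None of these 4 lists had a miRNA that passed. The part of any of these miRNAs in the miR-10b levels was not tested.

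Counting by sequence also moved the other members. miR-10a then had 9, 95 and 2418 reads in LPS+AS-IV libraries, 4, 233 and 72 in LPS libraries and 149, 79 and 315 in Control libraries. Its log2 fold change was 0.41 for LPS+AS-IV against LPS (SE 1.34, edgeR adjusted p = 0.938), -0.46 for LPS+AS-IV against Control (SE 1.34, adjusted p = 0.972) and -0.87 for LPS against Control (SE 1.35, adjusted p = 0.968), so that the second had the opposite sign to the table's. miR-196b had 3674 reads in LPS+AS-IV 3 and was as in the table elsewhere. Its log2 fold change became 1.11 for LPS+AS-IV against LPS (SE 1.98, edgeR adjusted p = 0.938), 1.42 for LPS+AS-IV against Control (SE 2.0, adjusted p = 0.966) and 0.31 for LPS against Control (SE 1.96, adjusted p = 0.968). miR-196a kept 4 of its 65 reads. No member was called.

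The hairpin tags, listed with 1 mismatch, were mostly perfect matches of another length or, for 202 reads under the name miR-10a-5p, of miR-10b sequence. Of their 2400 reads, 2267 (94.5%) in 6 tags were exact stretches of a member's hairpin, 87 reads in 4 tags carried 1 unmatched base at the 3′ end, and 44 reads in 25 tags carried 1 substitution. One further tag, with 2 reads, was none of these. The mature tags, listed with 0 mismatches, held 5272 exact reads in 6 tags and 77 reads in 2 tags with an unmatched last base. No tag with an unmatched last base was an exact stretch of any of the 419 hairpins.

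How many reads a row missed differed by library. Hairpin tags, those of miR-10b sequence included, made up 17.5% of the reads under the name miR-10a-5p over all libraries: 11.1%, 33.3% and 0.881% in LPS+AS-IV libraries, 50.0%, 36.6% and 41.9% in LPS libraries and 42.6%, 37.6% and 75.4% in Control libraries. In Control 3 the largest single tag was the one shortened by 1 base at the 5′ end, with 170 reads, against 0 or 1 in the other 8 libraries. In LPS 3, 63 reads of a further form, accctgtagatccgaatttgtT, with the unmatched base in capitals, were listed as RF00104 and seen in no other library. The form that starts 1 base later has another seed than miR-10a-5p.

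For miR-196b-5p, hairpin tags made up 42.7% of reads over all libraries, with 0%, 6.45% and 45.6% in LPS+AS-IV libraries, 59.1%, 0.690% and 50.0% in LPS libraries, the last of 2 reads, and 0% in each Control library. The tags that carry these shares are shown, with base 12 in capitals in the exact ones and the unmatched base in capitals in the other.
miR-196b, mature in the table: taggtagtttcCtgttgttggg
miR-196b, 1 base shorter, mature in the table: taggtagtttcCtgttgttgg
miR-196b, 1 base longer, listed as hairpin: taggtagtttcCtgttgttggga
miR-196b with an unmatched last base, listed as hairpin: taggtagtttcctgttgttgggT
The 22-nt tag had 0, 28 and 2000 reads in LPS+AS-IV libraries, 37, 144 and 0 in LPS libraries and 65, 35 and 0 in Control libraries. The 23-nt tag was seen in LPS+AS-IV 3 alone, with 1674 reads, and the tag with the unmatched base had 54 reads in LPS 1, against 0 to 3 elsewhere. The 21-nt tag had 21 reads in Control 2 and 0 to 4 elsewhere.

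**Figure D3:**
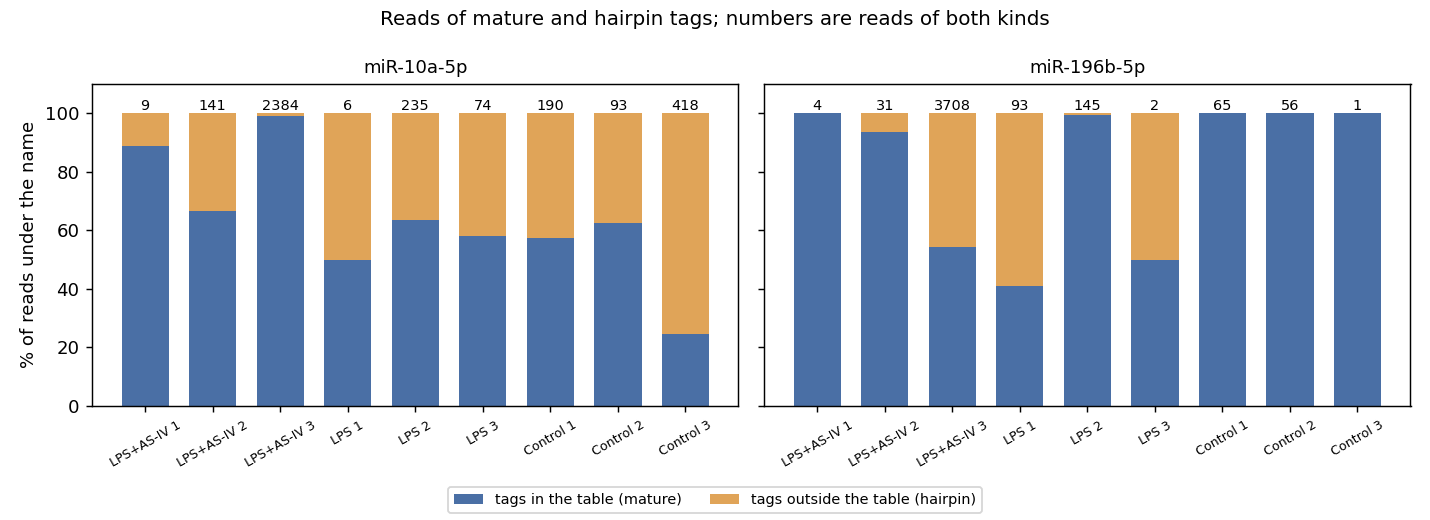
Percent of the reads under each name that came from mature tags, which the table counts (blue), and from hairpin tags, which it does not (orange), per library, with the reads of both kinds above each bar. The hairpin part of miR-10a-5p ran from 0.881% in LPS+AS-IV 3 to 75.4% in Control 3, and that of miR-196b-5p was 0% in the 3 Control libraries.

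The levels rested on few tags. The 44 tags gave 88 tag-by-library counts: 55 were of 1 to 4 reads, 2 of 5 to 12 reads and 31 of 13 reads or more, and those 31 held 98.9% of the 7749 reads. LPS+AS-IV 3 held tags of 2363, 2000 and 1674 reads beside many of 1 or 2 reads.

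**Figure D4:**
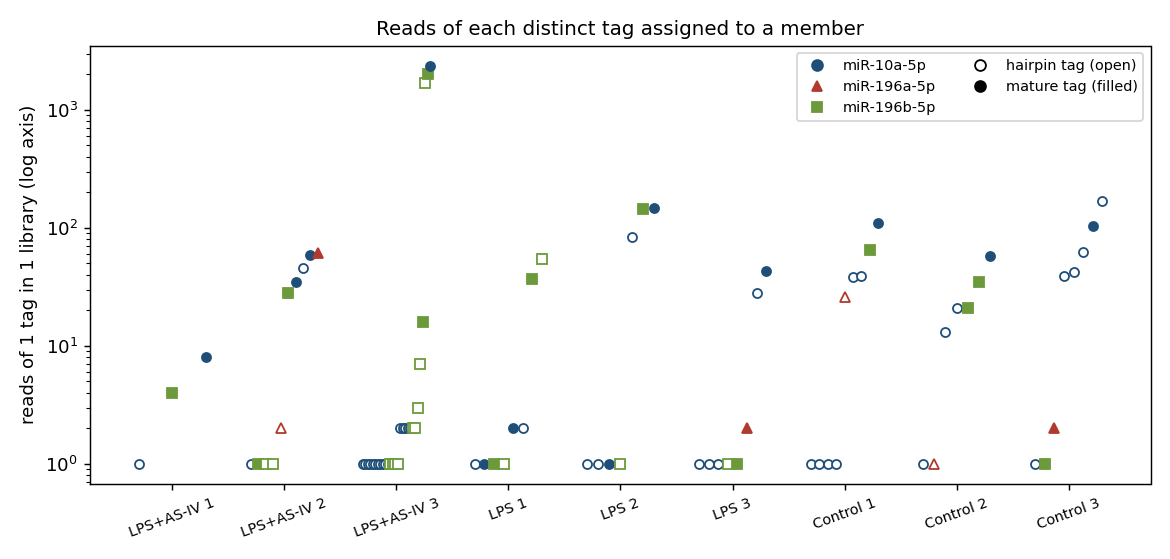
Reads of each distinct tag assigned to a member in each library (1 symbol per tag, log axis), by name (colour and shape) and by kind (filled, mature; open, hairpin). Most symbols lie either at 1 to 4 reads or at 13 and above, with 2 between.

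Summed over each family by the table's names, no comparison passed. The miR-10 sum, which is miR-10a-5p alone, differed on the log2(CPM + 10) scale by 1.42 between LPS+AS-IV and LPS, by -0.17 between LPS+AS-IV and Control and by -1.59 between LPS and Control (exact permutation p = 0.5, 0.9 and 0.4, two-sided; adjusted over the 3 comparisons 0.75, 0.9 and 0.75). By sequence, with miR-10b included, the differences were 1.06, -0.94 and -2.0 (exact permutation p = 0.5, 0.3 and 0.3). The miR-196 sum differed by 1.02, 1.27 and 0.24 in the same order of comparisons (exact permutation p = 0.6, 0.7 and 0.8, two-sided; adjusted 0.8 in each).

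**Figure D5:**
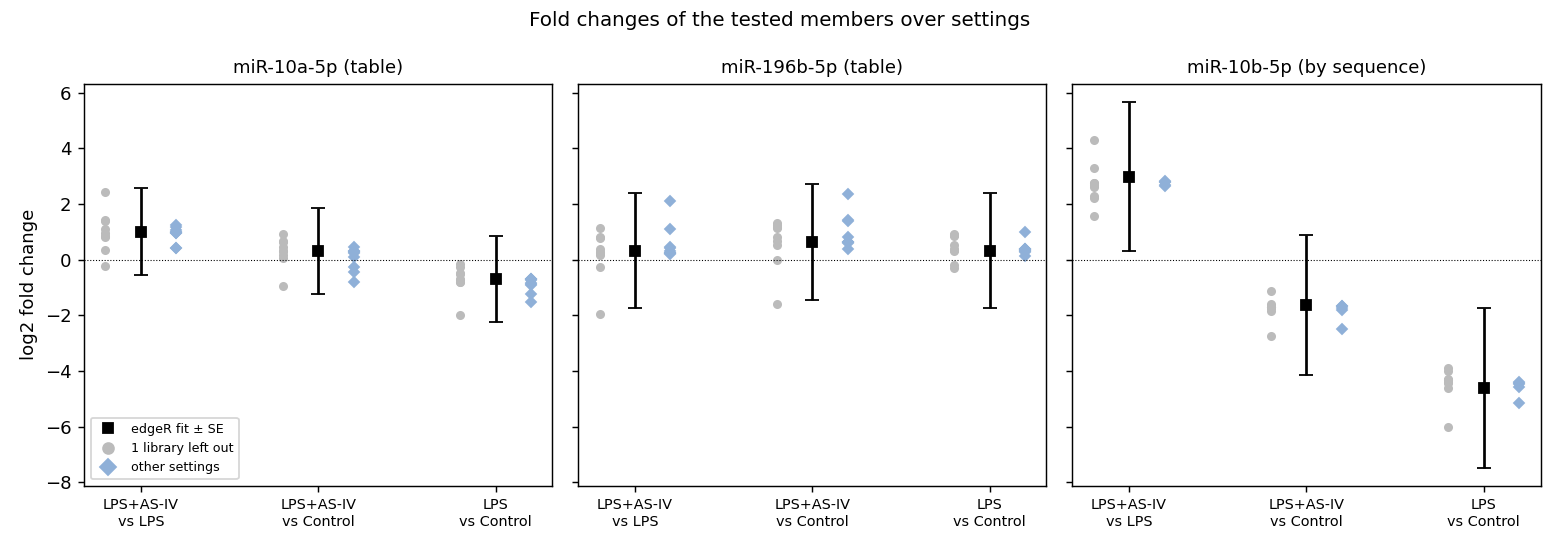
Log2 fold changes of the 3 tested members in each comparison (squares, edgeR, with bars of 1 SE), with the values when 1 library is left out (grey points) and under the other settings (blue diamonds). miR-196b-5p moved across 0 in all 3 comparisons and miR-10a-5p in both that involve LPS+AS-IV, while miR-10a-5p stayed below 0 for LPS against Control (-0.70) and miR-10b-5p counted by sequence stayed below 0 in both comparisons with Control, at -4.60 and -1.62.

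The relatives whose seed is nearest to that of miR-10, the miR-99 and miR-100 miRNAs, were all 3 tested. RefSeq gives miR-99b-5p and miR-100-5p the shared seed shown in capitals.
miR-99b-5p: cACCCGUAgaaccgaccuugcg
miR-100-5p: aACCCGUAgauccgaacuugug
miR-99a-5p was at 8294, 25153 and 3989 CPM in LPS+AS-IV libraries, at 7052, 7670 and 6590 CPM in LPS libraries and at 13882, 10125 and 9475 CPM in Control libraries. Every LPS library was below every Control library, as for 11.7% of the 94 tested miRNAs, and LPS+AS-IV lay on both sides. For LPS against Control, edgeR gave a log2 fold change of -0.65 (SE 0.63, adjusted p = 0.964). miR-100-5p was at 216, 0 and 2243 CPM in LPS+AS-IV libraries, at 1979, 2174 and 1667 CPM in LPS libraries and at 259, 806 and 968 CPM in Control libraries, with every LPS library above every Control library, as for 7.45% of those tested, and a log2 fold change of 1.52 (SE 2.09, edgeR adjusted p = 0.964). For miR-99b-5p the groups overlapped, at 1226, 5015 and 1181 CPM in LPS+AS-IV libraries and 3490, 1250 and 5147 CPM in LPS libraries. In Control libraries it was at 5656, 3017 and 3427 CPM. None of the 3 relatives passed in any comparison, and their median log2 fold change for LPS against Control was -0.29, beside -0.04 over all tested.

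Over the 9 libraries, the miRNAs whose log2(CPM + 10) followed miR-10a-5p most closely were let-7b-5p (Pearson r = 0.82, Spearman rho = 0.57), miR-3557-5p (r = 0.67, rho = 0.57) and miR-93-5p (r = 0.65, rho = 0.28). The r of miR-10a-5p with the log10 of table reads was 0.65. miR-196b-5p was followed by let-7i-5p (r = 0.72, rho = 0.58), miR-192-5p (r = 0.65, rho = 0.75) and miR-1b (r = 0.56, rho = 0.37), and its r with depth was 0.17. miR-10a-5p and miR-196b-5p had an r of 0.27 with each other and a rho of 0.75. These are descriptions over libraries that share their depth differences.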

How the data were processed

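The deposited table of the series held whole-number read counts of 201 mature miRNAs in 9 libraries, not normalized, per the file headers, and a second count column headed exp, never above the reads, whose origin is not given in those headers or the labels. Per library, a deposited file gave the count of each tag, its assignment and, per the file headers, a score, which for miRNA tags is the number of mismatches. Per the submitters' processing notes, the tool Bowtie2 and the build Rnor_6.0 were named, with no role or version stated. Sequences and positions are those of RefSeq, build GRCr8. The table equalled the sum of mature tags in all 27 member values.

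Counts were tested with the quasi-likelihood method of edgeR 4.0.16 (R 4.3.3), in 1 fit over 9 libraries by group, with TMM factors, filterByExpr defaults and a Benjamini-Hochberg adjusted p under 0.05 over 94 miRNAs. It was run on simulated counts with far less spread between replicates than these libraries have, so that run does not show its performance here. DESeq2 1.42.0 was an alternative. Family sums were tested by exact permutation on log2(CPM + 10). Replicates differed beyond sampling noise (lowest chi-square per degree of freedom 30.5), and the common dispersion had a square root of 1.42. The miRNAs named are the members, the 3 most correlated with each tested member, miR-99 and miR-100, and the cell type lists; tags shown are the largest of each member and those with a main share of its reads. The cell type lists were myeloid, mesenchymal, endothelial, erythroid, lymphocyte, epithelial and liver and serum, and no miRNA of any of them passed in any comparison. Members, lists and tests were chosen with earlier results of these data known.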

Additional observations from a re-analysis of the deposited data

Results flagged for a closer look

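Tags of miR-196b sequence that the table does not count had 1, 2 and 1696 reads in LPS+AS-IV libraries. They had 55, 1 and 1 reads in LPS libraries and 0 in each Control library. Unlike the counts by sequence above, these include tags with 1 unmatched last base or 1 substitution. LPS+AS-IV 3 and LPS 1 were the libraries above the limit of 3 reads that a count of 0 allows. Of the 1696 reads in LPS+AS-IV 3, 1674 were the tag 1 base longer than the 22-nt form. Of the 55 reads in LPS 1, 54 were the tag with an unmatched last base. No cause was tested.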

How the results depend on the processing

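Each trio of values runs LPS+AS-IV against LPS, LPS+AS-IV against Control, LPS against Control. Over all alternatives 260 values kept their direction and side of the threshold or stayed near the reported value, 19 changed sign and 21 moved. With 1 library left out, the called counts were 0 to 1, 2 to 3 and 1 to 3. The fold changes then ranged over -0.24 to 2.42, -0.95 to 0.91 and -1.98 to -0.16 for miR-10a-5p and over -1.96 to 1.14, -1.60 to 1.33 and -0.32 to 0.93 for miR-196b-5p. The family sums ranged over 0.25 to 2.47, -0.96 to 0.55 and -2.64 to -0.42 for miR-10 and over -0.64 to 2.07, -0.38 to 2.26 and -1.40 to 1.91 for miR-196. Leaving out LPS+AS-IV 3, LPS 3, Control 3, LPS 2, LPS 1, LPS+AS-IV 1 or Control 1 turned at least 1 of these signs. For LPS against Control the called count was 2 with library totals, no filter on low counts or the exp columns, 3 with DESeq2 and 0 with each tag given to 1 miRNA. For LPS+AS-IV against LPS it was 1 with DESeq2 and 1 without the filter, and for LPS+AS-IV against Control 0 with each tag given to 1 miRNA. For miR-10a-5p in LPS+AS-IV against Control the log2 fold change was -0.80 with hairpin tags added and -0.46 by sequence, and the miR-10 sum was 0.25 as a share of all assigned reads. The miR-10a share, 100% in every library by name, differed by -7.89, 2.97 and 10.9 points by sequence, the construction that adds miR-10b reads. Other causes were not tested. The replicate numbers were not taken to pair the libraries: of 9 pairs, 3 had a correlation of deviations over 0.1 (range -0.11 to 0.15). Those 3 were the pairs of replicate number 1, and with so few libraries a group the check cannot settle pairing. With a replicate block the count was 1 for LPS+AS-IV against LPS and 2 for LPS against Control, and miR-10a-5p was -0.28 in LPS+AS-IV against Control. Other scalings moved the median log2 fold change of all miRNAs by at most 0.19. LPS+AS-IV 1, at 15426 table reads, limits what can be seen there.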
